A study of Homo sapiens with 12 samples.

Results

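HT1080 cells, an established human fibrosarcoma line, were transfected with siRNAs against TRIP12 and OTUD5 together and compared with cells given scrambled siRNA, by RNA sequencing of poly(A) RNA. The comparison rests on 6 of the 12 libraries of the series: 3 of siTRIP12+siOTUD5 and 3 of scrambled, chosen by their labels. The other 6, with 3 of siTRIP12 and 3 of siOTUD5, entered the same model and served to place the double knockdown beside each single one. The cell line field of the labels counts upward by 1 from HT1080 with each sample, and it was read as HT1080 throughout. No other treatment is stated, and neither the time after transfection, the siRNA amounts nor the siRNA sequences were given in the sources used here. Nothing in the labels says that the 3 libraries of a group came from separate cultures, so p-values measure only the spread between these libraries, which may be technical.

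TRIP12 encodes a ligase of the HECT class, which passes ubiquitin to substrates and can add branches to existing ubiquitin chains, marking proteins for the proteasome. OTUD5 encodes a deubiquitylase of the ovarian tumour (OTU) family, which removes ubiquitin chains and thereby can protect proteins that a ligase has marked. The series title names a ubiquitin code in which degradation acts on substrates that deubiquitylation protects. RNA levels do not measure protein stability, and the values below describe transcript levels only.

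Total counts of the 6 libraries lay between 38035559 and 42651955 reads, and 16283 of 46427 genes passed the filter on low counts. Scrambled replicate 3 stood apart from its group. Its median absolute deviation from the group mean was 0.127 on the log2 scale, against 0.058 to 0.086 in the other 11 libraries, and its deviation fell with transcript length (rho of -0.50 across genes). It enters each comparison with scrambled, and counts of several gene lists moved without it. Markers of the labelled mesenchymal cell type summed to 4351 to 4615 TPM (transcript abundance per length, as deposited) in siTRIP12+siOTUD5 and 4840 to 5374 in scrambled, with THY1 at 0 in both groups and each of the other 11 markers above 0 in at least 1 library. Epithelial markers summed to 10.6 to 11.5 TPM in siTRIP12+siOTUD5, with 9 of 14 at 0, and 12.2 to 15.1 in scrambled, with 8 of 14 at 0. Leukocyte markers summed to 90.1 to 101 TPM in siTRIP12+siOTUD5 and 103 to 111 in scrambled. Endothelial and muscle markers summed to 2.05 to 2.33 TPM in siTRIP12+siOTUD5 and 3.05 to 3.29 in scrambled. Of the tested markers, 6 of 11 mesenchymal, 1 of 3 epithelial, 2 of 5 leukocyte, and 2 of 6 endothelial and muscle genes were lower in siTRIP12+siOTUD5, and 1 mesenchymal gene, CDH2, was higher. Of all tested genes, 16.2% were lower and 14.7% higher. Most of the called markers outside the mesenchymal list were scarce. The highest scrambled library held 3.2 TPM of CLDN4, 1.9 of CD3D, 0.97 of DES and 0.52 of PECAM1, beside 22.1 of CSF1R. The leukocyte count was 0 or 1 when any library was left out. In bulk RNA, fewer cells of a type and less RNA per cell cannot be told apart.

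Both targeted transcripts were low in every double-knockdown library. TRIP12 (chromosome 2) was at 54.5, 50.1 and 55.0 CPM (read counts scaled to library size) in siTRIP12+siOTUD5, against 346, 342 and 276 CPM in scrambled, which left 16.5% of the scrambled mean. OTUD5 (chromosome X) was at 10.8, 12.3 and 9.62 CPM in siTRIP12+siOTUD5, against 60.4, 58.5 and 60.5 CPM in scrambled, or 18.2%. The log2 fold changes were -2.60 ± 0.08 (SE) for TRIP12 and -2.46 ± 0.08 for OTUD5, with adjusted p of 1.5e-12 and 9.9e-13 by edgeR's quasi-likelihood test. The 3 libraries of each group did not overlap for either gene, which gives an exact two-sided permutation p of 0.1, the smallest that 3 against 3 can reach. TRIP12 was less depleted than with siTRIP12 alone, where it was at 38.9, 46.2 and 40.2 CPM (log2 difference of 0.35, adjusted p = 0.0079). OTUD5 in siTRIP12+siOTUD5 was not separated from siOTUD5 alone, at 10.6, 10.8 and 12 CPM (log2 difference of -0.03, adjusted p = 0.87).

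The double knockdown changed many genes by small amounts. At an adjusted p under 0.05, 5024 genes (30.9% of those tested) differed, 2394 higher (14.7%) and 2630 lower (16.2%) in siTRIP12+siOTUD5. Among them 241 were more than 2-fold higher (1.48% of tested genes) and 129 more than 2-fold lower (0.792%), while 3963 of the called genes (78.9%) changed by less than 1.5-fold. With upper-quartile factors, another scaling of the libraries, 2722 genes were higher and 2214 lower. Which direction held more genes thus depended on the scaling. Across all tested genes the median log2 fold change was 0.00, the 5th and 95th percentiles were -0.61 and 0.80, and the 1st and 99th were -1.33 and 1.62. The libraries of the 2 groups did not overlap in CPM for 6914 genes (42.5%), 3390 higher and 3524 lower. On the first principal component of all 12 libraries, which held 23.1% of the variance, the double-knockdown libraries lay at 13.8 to 16.6, siTRIP12 at 27.1 to 32.7, siOTUD5 at -14.6 to -11.1 and scrambled at -34.0 to -30.7. On the second, with 16.3%, the double knockdown lay on the side of siOTUD5, at -16.0 to -14.1 against -26.5 to -22.2. There siTRIP12 lay at 17.6 to 22.7 and scrambled at 15.7 to 26.8.

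**Figure D1:**
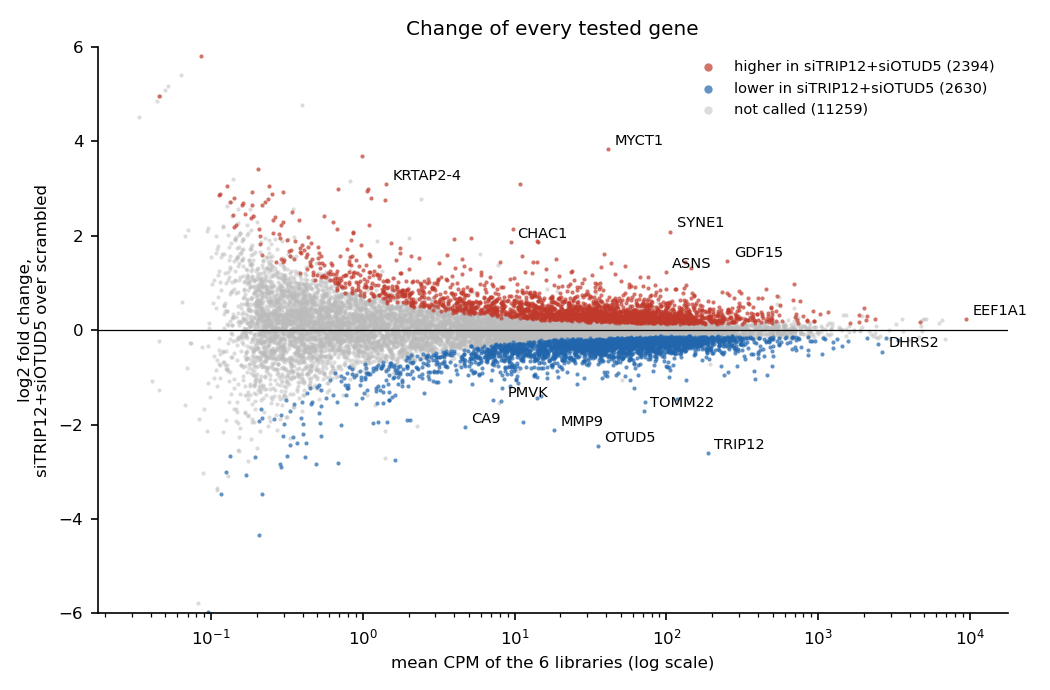
Log2 fold change of siTRIP12+siOTUD5 over scrambled (vertical axis) against mean CPM of the 6 libraries (horizontal, log scale) for each tested gene, with 2394 genes higher in red, 2630 lower in blue and the rest in grey; 18 genes beyond a log2 of 6 in either direction, TMEM225B among them, lie outside the axis. Most called genes lie close to 0, with MYCT1 at 3.83 and TRIP12 at -2.60 labelled.

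The balance of higher and lower genes differed by gene type, and the share of genes called differed by abundance. Of 12901 protein-coding genes tested, 1994 were higher and 2519 lower in siTRIP12+siOTUD5, with a median log2 fold change of -0.02. Of 2078 long noncoding RNAs 283 were higher and 64 lower, with a median of 0.23, and 240 were higher and 58 lower without scrambled replicate 3. Of 1033 pseudogenes 106 were higher and 45 lower. The share of genes called was 6.96% among 3220 genes under 1 CPM, 24.4% among 3454 at 1 to 10 CPM, 40.6% among 7349 at 10 to 100 CPM and 43.1% among 2260 over 100 CPM. In the most abundant class only 0.398% of genes changed by more than 2-fold. Genes called higher took 19.7% of reads in each siTRIP12+siOTUD5 library, against 15.1% to 16% in scrambled libraries, and genes called lower took 18.4% to 18.9% in siTRIP12+siOTUD5, against 22.9% to 23.5% in scrambled. The genes were called in the same libraries, so the direction of these shifts follows from that choice and only their size is informative.

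With all libraries, the change moved upward with length between the second shortest and the longest decile of transcripts. Ranked by reads per TPM, which stands in for transcript length, the longest decile of genes had a median log2 fold change of 0.12, with 391 of 1324 genes higher and 136 lower, while the second shortest decile had a median of -0.09, with 119 higher and 305 lower. Without scrambled replicate 3 these medians were 0.04 and -0.02, with 337 higher and 246 lower in the longest decile and 147 higher and 222 lower in the second shortest. The shortest decile did not follow this order, with a median of 0.02 (94 higher and 161 lower), or 0.07 without scrambled replicate 3 (110 higher and 109 lower), the highest median of the 10 deciles in that fit. Spearman's rho between the change and length across 13237 genes was 0.15 with all libraries and 0.01 without that replicate. Gene lists made of short transcripts, such as subunits of the ribosome and respiratory chain, are therefore given with and without it.

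**Figure D2:**
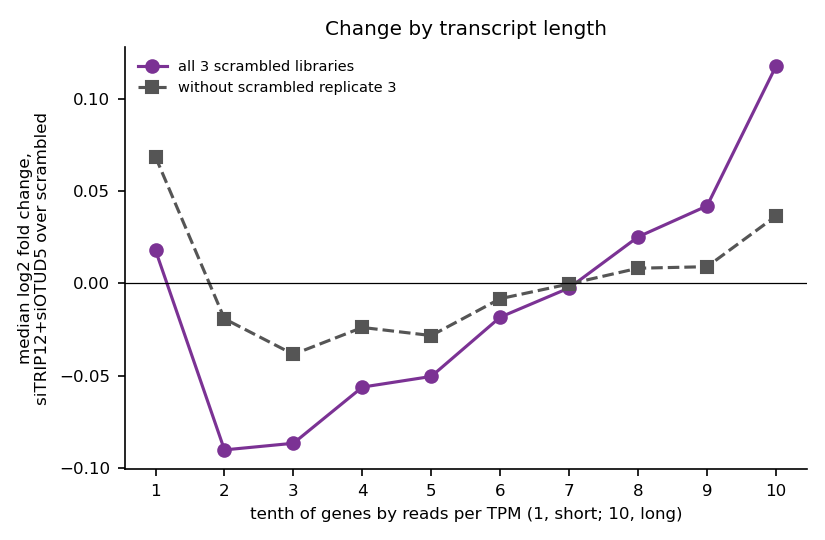
Median log2 fold change of siTRIP12+siOTUD5 over scrambled (vertical axis) in deciles of genes ordered by reads per TPM, a measure of transcript length (horizontal axis), with all 3 scrambled libraries (circles) and without scrambled replicate 3 (squares). The slope from -0.09 in the second decile to 0.12 in the last is smaller, -0.02 to 0.04, without that library, and the first decile lies above the second, at 0.02 and 0.07.

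The protein-coding genes described next have the largest log2 fold changes among called genes that averaged 100 reads or more in whichever group was higher and whose siTRIP12+siOTUD5 and scrambled values did not overlap. MYCT1 (chromosome 6), a gene named as a target of MYC, had the largest rise of those with reads in scrambled. It was at 84.4, 80.1 and 68.1 CPM in siTRIP12+siOTUD5, against 5.03, 5.07 and 6.21 CPM in scrambled (log2 3.83 ± 0.12, adjusted p = 9.9e-13). Each single knockdown lay between, with 41.4, 46.8 and 49.3 CPM in siTRIP12 and 29.7, 26.3 and 23.5 CPM in siOTUD5. SYNE1, a neighbour of MYCT1 on chromosome 6 (152121687 to 152637362, against 152697897 to 152747181 for MYCT1), encodes nesprin-1, a giant protein of the outer nuclear membrane that ties the nucleus to the cytoskeleton. SYNE1 was at 174, 173 and 169 CPM in siTRIP12+siOTUD5, against 46.0, 41.8 and 33.6 CPM in scrambled (log2 2.09 ± 0.09). That the groups lie apart follows from how these genes were chosen. ZNF404 (chromosome 19), a zinc finger gene, was at 23.1, 21.4 and 23.0 CPM in siTRIP12+siOTUD5, against 5.70, 6.17 and 6.47 CPM in scrambled (log2 1.88 ± 0.10). The noncoding LOC100505715, at 43891804 to 43901803 beside ZNF404 at 43872365 to 43883964, was at 21.4, 22.9 and 21.9 CPM in siTRIP12+siOTUD5, against 5.72, 6.17 and 5.95 CPM in scrambled (log2 1.89 ± 0.09), so both members of this pair rose by similar amounts. A further zinc finger gene, ZNF699, rose by log2 1.45 ± 0.13.

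The stress-linked gene CHAC1, whose product degrades glutathione, was at 13.8, 16.5 and 14 CPM in siTRIP12+siOTUD5, against 2.83, 3.88 and 5.43 CPM in scrambled (log2 1.86 ± 0.34, adjusted p = 0.0027). GDF15, which encodes a secreted stress cytokine of the TGF-beta family, was at 336, 409 and 365 CPM in siTRIP12+siOTUD5, against 128, 126 and 149.5 CPM in scrambled (log2 1.46 ± 0.12). The interleukin gene IL1B was at 53.4, 63.6 and 59.3 CPM in siTRIP12+siOTUD5, against 18, 19.2 and 20.6 CPM in scrambled (log2 1.61 ± 0.13). IL13RA2, a decoy receptor for interleukin-13, rose by log2 1.45 ± 0.10, the lectin gene CD22 by 1.51 ± 0.08, the immunoglobulin-like and fibronectin domain gene IGFN1 by 1.45 ± 0.18 and ANKRD1, a mechanically responsive ankyrin repeat gene, by 1.44 ± 0.06. The keratin-associated genes KRTAP2-3 and KRTAP2-4 rose by log2 3.09 ± 0.16 and 3.09 ± 0.34. They are neighbouring paralogs on chromosome 17, and reads may be split between them. TMEM225B had 614 reads in siTRIP12+siOTUD5 and 0 in scrambled, which is at least 209-fold higher against a floor of 3 counts over the group. With siOTUD5 alone TMEM225B had 694 reads, 205 to 273 per library, beside 166 to 263 per library in siTRIP12+siOTUD5. The rise was thus also present without siTRIP12. Its 3 siTRIP12 libraries held 118 reads in 1 library and 0 in the other 2, and its call was lost when any siTRIP12+siOTUD5, siOTUD5 or scrambled library was left out (adjusted p of 0.03 with all libraries and up to 0.074 otherwise).

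The largest fall beside the targets was that of MMP9, the gelatinase for which HT1080 cells are widely used. MMP9 was at 6.95, 6.39 and 7.10 CPM in siTRIP12+siOTUD5, against 30.8, 30.1 and 27.4 CPM in scrambled (log2 -2.11 ± 0.09, adjusted p = 5.6e-11). It was lower still with siTRIP12 alone, at 3.21, 3.02 and 2.99 CPM, and between the groups with siOTUD5 alone, at 16.8, 13.5 and 15.5 CPM. CALB2, which encodes the calcium-binding protein calretinin, was at 4.70, 4.70 and 4.66 CPM in siTRIP12+siOTUD5, against 17.4, 16.8 and 19.8 CPM in scrambled (log2 -1.94 ± 0.13). TOMM22 (chromosome 22), a receptor subunit of the outer mitochondrial membrane translocase, was at 33.9, 32.5 and 33.5 CPM in siTRIP12+siOTUD5, against 103, 101 and 122 CPM in scrambled (log2 -1.71 ± 0.07). Its siTRIP12 libraries, at 105, 102 and 111 CPM, overlapped scrambled, and its siOTUD5 libraries were the lowest, at 22.9, 22.8 and 24.5 CPM. DAZAP2, which encodes a small proline-rich adaptor, was at 38, 36.7 and 37.5 CPM in siTRIP12+siOTUD5, against 105, 104 and 114 CPM in scrambled (log2 -1.53 ± 0.07).

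PMVK, which encodes phosphomevalonate kinase of the cholesterol pathway, fell by log2 -1.51 ± 0.13. MAP2K6, a kinase that activates p38, changed by -1.49 ± 0.13. The urocortin gene UCN2 had a log2 fold change of -1.44 ± 0.13, the klotho-related gene LCTL of -1.39 ± 0.09, the leucine-rich repeat gene LRRC15 of -1.33 ± 0.25 and the glycolytic aldolase gene ALDOC of -1.23 ± 0.07. CA9, a carbonic anhydrase induced by hypoxia, was at 1.35, 1.58 and 2.54 CPM in siTRIP12+siOTUD5, against 7.24, 8.75 and 6.66 CPM in scrambled (log2 -2.04 ± 0.53). Its call was lost without siTRIP12+siOTUD5 replicate 1 or 2 (adjusted p up to 0.0632). ASDURF, at -1.90 ± 0.41, is an upstream reading frame of the ASNSD1 locus, so its reads may belong to either gene.

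**Figure D3:**
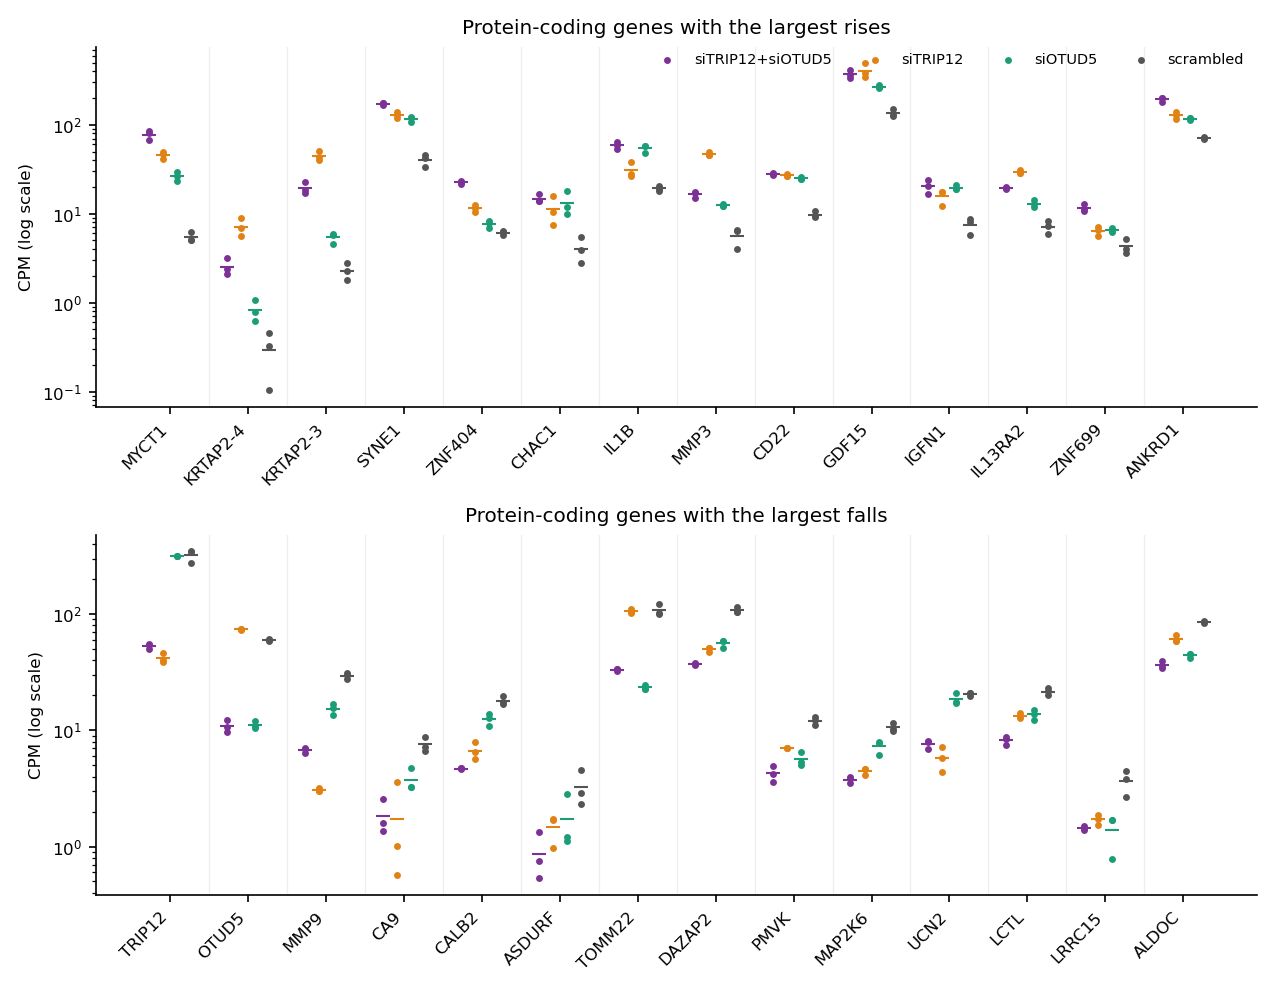
CPM of each library (points, log scale) and group mean (bar) for the protein-coding genes with the largest rises (above) and falls (below), with groups from left to right siTRIP12+siOTUD5, siTRIP12, siOTUD5 and scrambled; TMEM225B, at 0 in scrambled, is not drawn, and only genes named in the text are shown. The genes were chosen for groups that do not overlap, and MMP3, KRTAP2-3 and MMP9 lie further out with siTRIP12 alone.

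The largest rises by absolute difference in CPM were EEF1A1, ATP8, EEF2, AKAP12, LAMB3, PABPC1, RPL13A and RPL4. EEF1A1, which delivers aminoacyl-tRNA to the ribosome, was at 10110, 10040 and 10540 CPM in siTRIP12+siOTUD5, against 8110, 8557 and 9374 CPM in scrambled (log2 0.24 ± 0.06). The poly(A)-binding protein gene PABPC1 rose by log2 0.33 ± 0.05, the ribosomal protein genes RPL4 and RPL13A by 0.22 ± 0.06 and 0.23 ± 0.07, and the elongation factor gene EEF2 by 0.17 ± 0.06. The EEF2 call was lost without scrambled replicate 1 or 3, siOTUD5 replicate 1 or 2 or any siTRIP12+siOTUD5 library (adjusted p up to 0.161), and the RPL13A call without scrambled replicate 2 (0.0624). AKAP12, a scaffold for protein kinase A, was at 959, 902 and 918 CPM in siTRIP12+siOTUD5, against 501, 494 and 406 CPM in scrambled (log2 0.99 ± 0.07), and the laminin chain LAMB3 rose by 0.30 ± 0.06. The mitochondrially encoded ATP8 rose by 0.46 ± 0.14, and its call was lost without any of the scrambled libraries or siTRIP12+siOTUD5 replicate 1 or 2 (adjusted p up to 0.115). The falls in CPM were led by DHRS2, a short-chain dehydrogenase, at 2175, 2177 and 2359 CPM in siTRIP12+siOTUD5, against 2871, 3120 and 3192 CPM in scrambled (log2 -0.45 ± 0.06). The others were the pyruvate kinase gene PKM (log2 -0.30 ± 0.05), the intermediate filament gene VIM (-0.21 ± 0.05), the calcium-binding chaperone CALR (-0.51 ± 0.05), ANXA2 (-0.34 ± 0.06), the enolase ENO1 (-0.17 ± 0.05), the lactate dehydrogenase LDHA (-0.37 ± 0.05) and the desaturase SCD (-0.53 ± 0.06). The ENO1 call was lost without siTRIP12+siOTUD5 replicate 1 or 2 (adjusted p up to 0.088).

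Among long noncoding RNAs, LOC151760 was at 15.3, 16.7 and 15.4 CPM in siTRIP12+siOTUD5, against 4.24, 3.91 and 2.62 CPM in scrambled (log2 2.14 ± 0.15). LINC02009 and LOC107984322 rose by log2 1.93 ± 0.16 and 1.75 ± 0.21. The largest fall was that of LOC107987246, at 0.482, 0.475 and 0.302 CPM in siTRIP12+siOTUD5, against 3.20, 3.14 and 2.14 CPM in scrambled (log2 -2.74 ± 0.29). ITGB2-AS1, antisense to the integrin gene ITGB2, fell by log2 -1.89 ± 0.22 while ITGB2 itself had a log2 fold change of -0.87, whose call was lost in most alternatives (adjusted p up to 0.164). The kit keeps strand, but the counting setting is not given in the sources used here, so reads of this pair may not be separable. LOC100507002 and LOC105376369 changed by -0.94 ± 0.13 and -0.92 ± 0.13.

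siRNAs are known to lower unintended transcripts that carry a match to their seed in the 3′ untranslated region (UTR), so short sequences in UTRs were read beside the changes. Of 11426 protein-coding genes scanned, in the longest GENCODE UTR of each, 15853 sequences of 7 bases occurred in at least 100 genes, and each was ranked by the change of the genes that hold it after adjustment for UTR length, base composition and abundance. TGACGTA ranked highest in siTRIP12+siOTUD5 against scrambled, with and without scrambled replicate 3. It stood in the UTR of 193 genes, of which 90 (46.6%) were higher and 14 (7.25%) lower in siTRIP12+siOTUD5, beside 16.9% and 21.5% of all genes scanned. The median log2 fold change of these genes was 0.20, against -0.02 over all scanned, and was 0.15 in siTRIP12 and 0.20 in siOTUD5, comparisons that share the scrambled libraries. Against siTRIP12 and siOTUD5, which do not involve scrambled, the same genes averaged adjusted log2 differences of -0.01 each. The genes with 2 copies were INPP5E, JPH1, RBM33 and RGP1, of which the first 3 were higher. The sites of INPP5E (chr9:136428941-136428967 and chr9:136428903-136428929, minus strand) and of RBM33 (chr7:155779127-155779153 and chr7:155781346-155781372, plus strand) are shown because these genes hold the sequence in duplicate, beside those of RGP1 (chr9:35753226-35753252 and chr9:35757630-35757656, plus strand), which did not pass the test, in GRCh38 with the 7 bases in capitals.
INPP5E site 1: atggtcttggTGACGTAgaccattttt
INPP5E site 2: atggtcttggTGACGTAgaccgtttgc
RBM33 site 1: agctatggctTGACGTAatcgctttta
RBM33 site 2: agaatggtaaTGACGTAgttgaaagga
RGP1 site 1: tcctgcctccTGACGTAcctcacaccc
RGP1 site 2: gtccagaggcTGACGTAgacagtgaag

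INPP5E, a phosphoinositide phosphatase of cilia, was at 24.9, 31.9 and 26.1 CPM in siTRIP12+siOTUD5, against 22.2, 22.7 and 19.7 CPM in scrambled (log2 0.36 ± 0.10). RBM33, an RNA-binding protein, was at 93.9, 99.1 and 94.9 CPM in siTRIP12+siOTUD5, against 86.2, 84.9 and 66.8 CPM in scrambled (log2 0.27 ± 0.08). JPH1, a junctional membrane protein, rose by log2 0.26 ± 0.06. RGP1, a partner in activating a Golgi GTPase, was at 72.9, 67.8 and 75.4 CPM in siTRIP12+siOTUD5, against 77.9, 79.8 and 66.2 CPM in scrambled, with overlapping groups (log2 -0.05 ± 0.07, adjusted p = 0.62). Libraries of the groups did not overlap for INPP5E or RBM33, and the INPP5E call was lost without siTRIP12+siOTUD5 replicate 2 (adjusted p = 0.0895). The sequence was chosen for its rank in this comparison, so its counts are a description with no test, and a match to any of the siRNAs was not tested, since their sequences were not given in the sources used here.

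GTTTGAA ranked lowest in siTRIP12+siOTUD5 against scrambled and against siTRIP12, and GTTCAGA ranked lowest against siOTUD5, 11th lowest of 15853 against scrambled and highest against siTRIP12. The siTRIP12+siOTUD5 libraries are common to these comparisons. Their average effect was small. The 2124 genes with GTTTGAA had a mean adjusted log2 difference of -0.03 from scrambled, and the 484 with 2 or more copies -0.08. Before adjustment, 382 of the 2124 were higher and 480 lower than scrambled. Their median log2 fold change was -0.0154, against -0.0246 over all genes scanned, and was -0.0322 for those with 2 or more copies. By this median, genes with GTTTGAA were not below all genes scanned before adjustment. Against siOTUD5, GTTTGAA ranked 13826th lowest of 15853. Of the largest falls, TOMM22 held 2 copies of GTTTGAA, DAZAP2 1 copy of each sequence, MAP2K6 3 copies of GTTTGAA and 1 of GTTCAGA, and LRRC15 1 copy of GTTCAGA. MMP9, CA9, CALB2, PMVK, UCN2, LCTL and ALDOC held neither. Of all genes scanned, 18.6% held GTTTGAA and 12.8% GTTCAGA. The UTR of MAP2K6 was 12108 bases long, beside a median of 3140 for genes with GTTTGAA. A link between these copies and the falls was not tested. ANKRD1, EEF1A1, AKAP12 and RPL4, which rose, also held GTTTGAA. MAP2K6 and LRRC15 fell by more than 2-fold as well, and their sites are not shown. The sites in TOMM22 (chr22:38683868-38683894 and chr22:38683883-38683909, plus strand) and DAZAP2 (chr12:51243238-51243264 and chr12:51243337-51243363, plus strand) are shown because these genes fell most among those named here that hold either sequence.
TOMM22 site 1: agtgggataaGTTTGAAattcaagtgt
TOMM22 site 2: aaattcaagtGTTTGAActgctgataa
DAZAP2 site 1: actgagctatGTTTGAAcaaagatgtc
DAZAP2 site 2: tgattgatgtGTTCAGAgctaaattaa

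Groups of related genes were then read against the share called among all tested genes, 14.7% higher and 16.2% lower. The lists are described by their counts, with no test of a list.

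Many genes of the ATF4 pathway rose. ATF4 is a transcription factor whose translation increases when the initiation factor eIF2 is phosphorylated, and it drives genes of amino acid supply and the stress regulators DDIT3, TRIB3 and SESN2. Of 22 tested regulators and feedback genes of this pathway, 11 were higher and 0 lower in siTRIP12+siOTUD5, with a median log2 fold change of 0.58 (1 lower at an unadjusted p under 0.05 and 1 lower with DESeq2, or without scrambled replicate 2 or siTRIP12 replicate 3). ATF4 itself rose by log2 0.54, DDIT3, which encodes the transcription factor CHOP, by 1.23, and TRIB3, an inhibitory pseudokinase, by 0.81. DDIT3 was at 16.4, 17.1 and 15.9 CPM in siTRIP12+siOTUD5, against 6.59, 6.41 and 8.14 CPM in scrambled. SESN2, which restrains mTORC1 on leucine shortage, was at 103, 107 and 99.9 CPM in siTRIP12+siOTUD5, against 47.5, 49.3 and 44.1 CPM in scrambled. PPP1R15A, which directs dephosphorylation of eIF2, was at 70.2, 71.9 and 69.9 CPM in siTRIP12+siOTUD5, against 46.4, 44.2 and 45.4 CPM in scrambled. The groups did not overlap in any of these 3. The eIF2 kinases and eIF2 alpha did not pass the test, with log2 values of 0.09 for EIF2AK4, -0.03 for EIF2AK3, -0.06 for EIF2AK1 and -0.13 for EIF2S1. INHBE (0.88) and NUPR1 (0.74) had large values with wide errors and were not called.

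Most genes that supply amino acids also rose. Of 21 tested genes of amino acid synthesis and transport, 13 were higher and 1 lower, with a median of 0.39. SLC7A11, the cystine and glutamate exchanger, was at 78.4, 74.0 and 76.9 CPM in siTRIP12+siOTUD5, against 30.2, 29.4 and 29.7 CPM in scrambled (log2 1.36 ± 0.14). Asparagine synthetase, ASNS, rose by 1.24, and the neutral amino acid carriers SLC1A4 and SLC1A5 by 1.11 and 0.48. The serine synthesis genes PHGDH (0.91) and PSAT1 (0.74) and the mitochondrial folate enzyme MTHFD2 (0.43) rose as well. The member that fell was ALDH18A1, the entry enzyme of proline synthesis, at 65.1, 70.6 and 74.4 CPM in siTRIP12+siOTUD5, against 136, 143 and 137 CPM in scrambled (log2 -0.99 ± 0.06). ALDH18A1 was not lower than with siOTUD5 alone, where the double knockdown was higher by log2 0.27 (adjusted p = 0.006).

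The cytosolic aminoacyl-tRNA synthetases, which charge tRNAs with their amino acids, split. Of 20 tested, 9 were higher and 4 lower, with a median of 0.11. The seryl enzyme SARS1 was at 293, 302 and 292 CPM in siTRIP12+siOTUD5, against 161, 164 and 178 CPM in scrambled (log2 0.82 ± 0.07), and the glycyl enzyme GARS1 at 491, 496 and 499 CPM in siTRIP12+siOTUD5, against 287, 307 and 337 CPM in scrambled (log2 0.67 ± 0.08). AARS1, MARS1, CARS1, YARS1, WARS1, NARS1 and IARS1 rose by log2 0.18 to 0.50. FARSA, FARSB and LARS1 fell, with log2 values of -0.31 to -0.17. The calls of WARS1, IARS1 and LARS1 were lost without 1 or more of the 6 libraries, with adjusted p up to 0.0928.

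The core of the element that ATF4 and its C/EBP partners are known to bind, TGATGNAA, was searched on both strands from 250 bases before to 50 bases after each start in the RefSeq promoter table (GRCh38.p14), and 259 of 11893 promoters of tested genes (2.18%) held it. Of the synthetase promoters in the table, it stood in 5 of 8 whose genes rose, 0 of 2 whose genes fell and 0 of 6 not called, so 3 risen genes lacked it. No test was made of these counts. It stood in 2 of 11 promoters of ATF4 regulators that rose and 0 of 6 not called, and in 3 of 10 amino acid genes that rose and 0 of 6 others. A match is a description of the letters and not of binding. The windows of the 5 synthetases are shown because they hold the core, 5′ to 3′ on the strand of the gene with the core in capitals, on AARS1 (chr16:70289676-70289703, minus strand), GARS1 (chr7:30594835-30594862, plus), IARS1 (chr9:92293693-92293720, minus), MARS1 (chr12:57488054-57488081, plus) and NARS1 (chr18:57621805-57621832, minus). In NARS1 the core reads in the direction of the gene, and in the other 4 on the opposite strand. The window of CHAC1 (chr15:40953252-40953279, plus strand), the regulator with the largest rise, follows them.
AARS1: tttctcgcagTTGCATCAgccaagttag
GARS1: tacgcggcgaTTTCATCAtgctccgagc
IARS1: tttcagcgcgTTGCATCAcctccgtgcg
MARS1: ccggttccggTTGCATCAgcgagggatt
NARS1: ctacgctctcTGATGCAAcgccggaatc
CHAC1: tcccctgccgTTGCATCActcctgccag

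**Figure D4:**
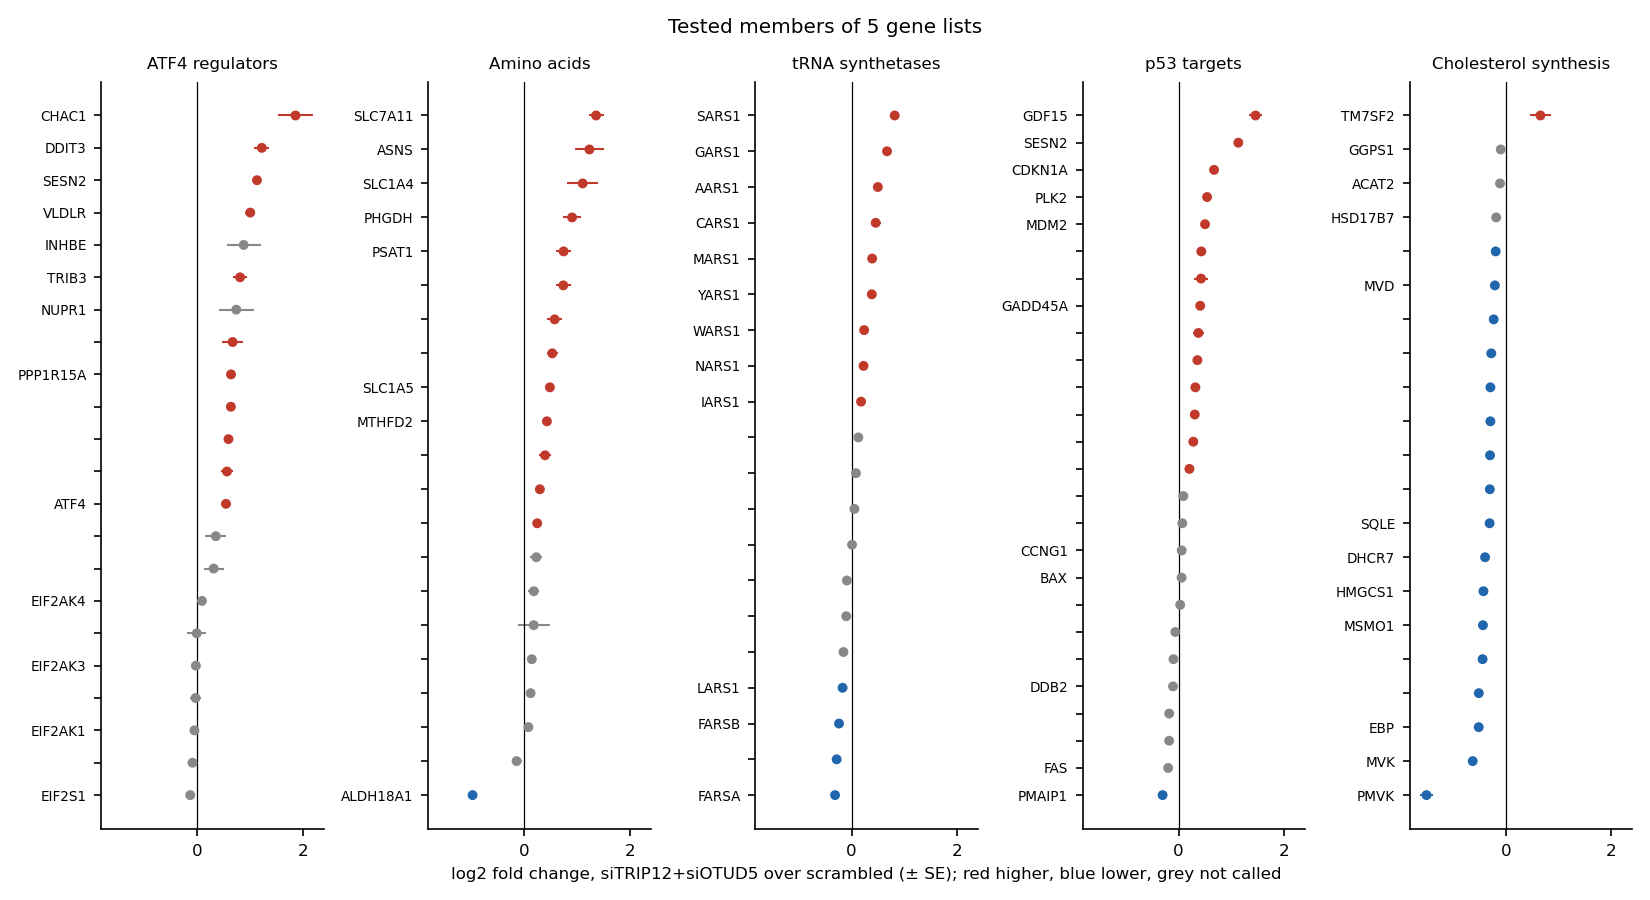
Log2 fold change ± SE of siTRIP12+siOTUD5 over scrambled for the tested members of 5 gene lists, labelled where the text names them, red where higher, blue where lower and grey where not called. ATF4 regulators and amino acid genes lie mostly to the right, with CHAC1 at 1.86 and SLC7A11 at 1.36, and cholesterol synthesis genes mostly to the left, with PMVK at -1.51.

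Most cholesterol synthesis genes fell. This pathway runs from acetyl-CoA through mevalonate and squalene to sterols, and its genes are controlled by the SREBP factors. Of 21 tested genes, 17 were lower and 1 higher in siTRIP12+siOTUD5, with a median of -0.30. The mevalonate kinase MVK had a log2 fold change of -0.63, the synthase HMGCS1 of -0.42, the squalene epoxidase SQLE of -0.31 and the late enzymes EBP and DHCR7 of -0.51 and -0.39. PMVK, between MVK and MVD in the pathway, stood out with its fall to 4.95, 4.23 and 3.6 CPM in siTRIP12+siOTUD5, against 13, 11.1 and 12.2 CPM in scrambled. TM7SF2, a sterol reductase, rose by 0.66, a call lost without scrambled replicate 1 or siTRIP12+siOTUD5 replicate 3 (adjusted p up to 0.0628). HSD17B7 (-0.18), ACAT2 (-0.11) and GGPS1 (-0.10) were not called. Between 14 and 17 members were lower in every alternative with a test against no change.

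The sterol sensor and transport genes did not follow as a group, with 3 of 15 higher and 3 lower (median 0.00). INSIG1, which retains the SREBP complex in the endoplasmic reticulum, was at 73.2, 74.1 and 74.2 CPM in siTRIP12+siOTUD5, against 127, 116 and 140.5 CPM in scrambled (log2 -0.79 ± 0.06). SREBF1 (log2 -0.29) and LPIN1 (-0.28) also fell, the SREBF1 call being lost without siTRIP12+siOTUD5 replicate 1 (adjusted p = 0.0549). The lipoprotein receptor gene VLDLR, the lysosomal cholesterol exporter NPC1 and SCAP, the escort of SREBP, rose by 1.01, 0.49 and 0.33. SREBF2 (0.06) did not pass the test. Of 20 fatty acid synthesis genes 7 were lower and 3 higher (median -0.09), and 10 were lower without scrambled replicate 3 (median -0.15). The elongase ELOVL6 was at 30.2, 31.7 and 33.0 CPM in siTRIP12+siOTUD5, against 64.5, 57.6 and 60.7 CPM in scrambled (log2 -0.94 ± 0.08), and SCD and the desaturases FADS1 and FADS2 fell by log2 values of -0.53, -0.38 and -0.45. FASN (-0.14), ACACA (-0.08) and ACLY (-0.09) were not called. The sterol element core TCACNCCA stood in 2 of 13 promoters of cholesterol genes that fell, MVK and MSMO1, beside 3.35% of all promoters of tested genes.

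Targets of p53, the stress-responsive tumour suppressor, were higher in 14 of 26 cases and lower in 1 (median 0.24). CDKN1A, which encodes the cell cycle inhibitor p21, was at 169.6, 192 and 172 CPM in siTRIP12+siOTUD5, against 113, 112 and 109 CPM in scrambled (log2 0.67 ± 0.06). MDM2, the ligase that degrades p53, rose by 0.50, the kinase PLK2 by 0.54 and GADD45A by 0.41. GDF15 and SESN2, the largest rises of this list, are also known as ATF4 targets. PMAIP1, which encodes NOXA, fell by log2 -0.31, and BAX (0.06), CCNG1 (0.06), FAS (-0.20) and DDB2 (-0.11) were not called. The count lower was 4 without scrambled replicate 2 and 2 without siTRIP12+siOTUD5 replicate 2. In the BCL2 family and cell death list 7 of 29 genes were higher and 7 lower (4 lower without scrambled replicate 1 or 3, or without siTRIP12+siOTUD5 replicate 1). The survival genes BCL2L1, MCL1 and XIAP rose by 0.37, 0.35 and 0.31, BCL2A1 by 1.08, and the cytochrome c gene CYCS fell, with -0.50.

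G1/S and DNA replication genes were lower in 20 of 44 cases and higher in 5 (median -0.14). The count lower was 14 without scrambled replicate 3 and 12 without siTRIP12+siOTUD5 replicate 1 or 2, and the count higher was 3 without siTRIP12+siOTUD5 replicate 1. CCND1, the D-type cyclin that drives entry into S phase, was at 380.0, 338 and 354 CPM in siTRIP12+siOTUD5, against 545, 527 and 496 CPM in scrambled (log2 -0.55 ± 0.06). Its partner CDK6 fell by log2 -0.76, and the replicative helicase subunits MCM4 and MCM7 by -0.45 and -0.26. The other D-type cyclin CCND3 went the other way, at 74.4, 77.6 and 73.4 CPM in siTRIP12+siOTUD5, against 37.8, 39.6 and 37.3 CPM in scrambled (log2 0.98 ± 0.06), with CCND2 (0.60) and CCNE1 (0.56). Of 39 G2/M and mitosis genes 11 were lower and 4 higher. CCNA2, cyclin A2, rose by 0.55, and CCNB1, UBE2C and AURKB fell, with -0.39, -0.44 and -0.41. The count higher was 7 without scrambled replicate 3 and 2 without scrambled replicate 1 or any siTRIP12+siOTUD5 library. MKI67 (0.25) and TOP2A (0.02) were not called. Of 40 homologous recombination and Fanconi genes 8 were lower and 4 higher, FANCD2 among the falls (-0.46). The 8 became 4 without scrambled replicate 1 or 2 and 5 without siTRIP12 replicate 2 or siTRIP12+siOTUD5 replicate 2, and the 4 became 1 or 2 without scrambled replicate 2 or siTRIP12+siOTUD5 replicate 2 or 3. Of 58 replication-dependent histone genes in the list, 30 passed the filter. Being from poly(A) RNA, their values do not cover any histone transcript that lacks a poly(A) tail. Of these 30, 0 were called in either direction (3 higher without scrambled replicate 3 and 1 without scrambled replicate 1, 0 with DESeq2, and 1 higher and 1 lower by edgeR at an unadjusted p under 0.05), at a median of 0.09 (0.19 without scrambled replicate 3), and 12 were lower than with siTRIP12 alone.

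More cytokine genes were higher than lower, and more interferon-stimulated genes were lower than higher. Of 21 tested cytokines and chemokines, 9 were higher and 3 lower (median 0.30, or 0.52 without scrambled replicate 3). IL24 was at 51.1, 54.5 and 54.3 CPM in siTRIP12+siOTUD5, against 20.5, 19.6 and 23.5 CPM in scrambled (log2 1.33 ± 0.08), and the neutrophil chemokine CXCL8 at 12.9, 14.2 and 13.7 CPM in siTRIP12+siOTUD5, against 6.49, 4.89 and 7.40 CPM in scrambled (log2 1.11 ± 0.15). IL1A (log2 1.08), IL18 (1.79), CCL20 (2.14), CXCL3 (0.98), IL12A (0.59) and IL11 (0.30) also rose. TNFSF9, IL32 and CSF1 fell, with log2 values of -0.38, -0.33 and -0.19, and the count lower was 1 without siTRIP12+siOTUD5 replicate 1 or 3. IL6 (0.35) was not called. The summed leukocyte markers given above lay below the scrambled range, and their part in these values was not tested.

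Of 16 NF-kB subunits and feedback inhibitors 5 were higher and 3 lower (3 higher without siTRIP12+siOTUD5 replicate 1 or 2). The subunits REL and NFKB2 rose by 0.75 and 0.25, and the inhibitor NFKBIB and the kinase IKBKE fell, with -0.45 and -0.43. NFKBIA (-0.14), TNFAIP3 (0.15) and RELA (-0.02) were not called. Of 24 genes of the TNF receptor 1 complex 7 were lower and 3 higher. The adaptors SPATA2 (-0.54), TRAF1 (-0.53) and TAB1 (-0.46) and the kinase RIPK1 (-0.38) fell, and the linear ubiquitin ligase subunit RNF31 rose by 0.25.

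Of 30 interferon response genes 10 were lower and 2 higher (median -0.22). The immunoproteasome subunits PSMB8 and PSMB9 had log2 fold changes of -0.54 and -0.66, ISG15, a ubiquitin-like modifier, of -0.48, IFITM3 of -0.40, IFIT1 of -0.69 and OASL of -1.18. PSMB8 was at 29.2, 32.2 and 29.8 CPM in siTRIP12+siOTUD5, against 42.6, 44.7 and 45.5 CPM in scrambled, with no overlap. STAT2 rose by 0.32, and IRF1 (-0.03) was not called. Of 13 acute phase and complement genes 4 were lower and 2 higher. C1R and PTX3 fell (-1.07 and -0.35) and the complement regulators CD59 and CD55 rose (0.36 and 0.29).

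Genes of the extracellular matrix and its proteases changed in both directions. Among 15 metalloproteinases and inhibitors 3 were higher and 3 lower. MMP3, stromelysin-1, was at 17.2, 15.1 and 17.7 CPM in siTRIP12+siOTUD5, against 3.96, 6.48 and 6.35 CPM in scrambled (log2 1.57 ± 0.13), while the gelatinase MMP2 was at 42.2, 46.5 and 49.1 CPM in siTRIP12+siOTUD5, against 71.8, 72.0 and 67.2 CPM in scrambled (log2 -0.61 ± 0.06). MMP3 was higher still with siTRIP12 alone, at 48.8, 46.0 and 45.5 CPM. The collagenase MMP1 and the inhibitor TIMP2 rose by 0.57 and 0.26, MMP19 fell by log2 -0.83 (call lost without scrambled replicate 3 or siTRIP12+siOTUD5 replicate 1 or 3, adjusted p up to 0.131), and MMP14 (0.00) and TIMP1 (-0.16) were not called. In the plasminogen activator system 5 of 14 genes were lower and 3 higher. The urokinase PLAU was at 332, 343 and 335 CPM in siTRIP12+siOTUD5, against 454, 453 and 484 CPM in scrambled (log2 -0.46 ± 0.06), its receptor PLAUR rose by 0.62 and the inhibitor SERPINB2 by 1.31. S100A10, a plasminogen receptor with ANXA2, fell by log2 -0.85.

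Of 47 collagens, laminins and crosslinking enzymes 13 were higher and 13 lower (10 and 16 without scrambled replicate 3). The basement membrane chains COL4A1, COL4A2 and LAMA5 rose by 0.65, 0.40 and 1.07, with the crosslinking oxidase LOX (0.75) and THBS1 (0.85). COL16A1, COL6A3 and COL5A1 fell, with -1.23, -0.95 and -0.81. Of 18 integrins 8 were lower and 2 higher, ITGB3 at -0.44 and ITGAX at -0.88 among the falls and ITGA5, the fibronectin receptor chain, at 0.34 among the rises. The 8 became 5 without scrambled replicate 1 or 2 and 3 without siTRIP12+siOTUD5 replicate 2. Of 14 keratins and keratin-associated genes 6 were higher and 2 lower. The 4 KRTAP2 genes rose by log2 2.96 to 3.09 and KRT7 by 0.53, and KRT18 fell (-0.32). The other fall, KRT8, was called only with all libraries or without scrambled replicate 1 among the leave-out fits.

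Targets of YAP and TAZ, the coactivators restrained by the Hippo kinases, were higher in 10 of 24 cases and lower in 2 (median 0.13, and 8 higher without scrambled replicate 3). ANKRD1 (chromosome 10) was at 198, 181 and 199 CPM in siTRIP12+siOTUD5, against 69.0, 70.8 and 73.4 CPM in scrambled, with 129, 139.7 and 116 CPM in siTRIP12 and 118, 120.0 and 113 CPM in siOTUD5. LATS2, NUAK2 and CRIM1 rose by 0.66, 0.52 and 0.40, and CCN1 (0.08), CCN2 (0.11) and AXL (-0.01) were not called. The TEAD core GGAATG stood in 4 of 8 promoters of members that rose and 5 of 9 not called, beside 11.5% of all promoters of tested genes. Of 29 SRF and actin genes 7 were higher and 2 lower (10 higher with upper-quartile factors), with ACTA2 (0.79) and CALD1 (0.77) up and TAGLN2 (-0.54) down. The actins ACTB (-0.02) and ACTG1 (0.13) were not called.

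TGF-beta response genes were lower in 14 of 29 cases and higher in 7 (median -0.25). TGFBI was at 185, 176 and 174 CPM in siTRIP12+siOTUD5, against 313, 323 and 346 CPM in scrambled (log2 -0.88 ± 0.07). SMAD6, which inhibits the pathway, the coreceptor TGFBR3 and the ligands TGFB2 and TGFB3 fell, with -0.95, -0.74, -0.65 and -0.97. The antagonist FST and the transcription factors SNAI2 and ZEB1 rose, with 0.61, 0.45 and 0.28. Of 25 AP-1 and immediate early genes 9 were higher and 6 lower. DUSP1 and KLF2 rose (0.70 and 0.91) and MYC and JUN fell (-0.29 and -0.23), the count lower being 3 without scrambled replicate 1 or 2 or siTRIP12+siOTUD5 replicate 1 or 3. Of 17 ERK feedback genes and ligands 6 were higher, SPRY4 at 0.57 among them, and 4 lower, PHLDA1 at -0.42 among them.

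At the nuclear envelope 5 of 19 genes were higher and 5 lower. Beside SYNE1, the related SYNE2 rose by 0.91 and BANF1 by 0.65. ZMPSTE24, the protease that matures prelamin A, was at 37.2, 35.0 and 41.0 CPM in siTRIP12+siOTUD5, against 74.6, 76.3 and 82.6 CPM in scrambled (log2 -1.04 ± 0.08). The lamin B receptor LBR and the methyltransferase ICMT fell as well, with -0.78 and -0.52. LMNA (-0.04) was not called.

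Most genes that build ribosomes fell. Of 39 ribosome biogenesis genes 23 were lower and 1 higher (median -0.19), and 26 lower and 3 higher without scrambled replicate 3. RRP9, a component of the U3 particle, was at 41.2, 39.1 and 39.0 CPM in siTRIP12+siOTUD5, against 52.9, 55.5 and 58.6 CPM in scrambled (log2 -0.49 ± 0.07), and NHP2, MRTO4 and NAT10 fell by log2 -0.41, -0.41 and -0.33. Ribosomal protein genes, which encode the finished particle, gave other counts. Of 79 tested 5 were higher and 1 lower (median 0.05, or 0.14 without scrambled replicate 3), led by RPL12, which rose by 0.39, and without scrambled replicate 3 the count higher was 26. Without scrambled replicate 1 or 2 it was 3 or 2, and without siTRIP12+siOTUD5 replicate 2 it was 3. The count lower was 0 to 3 in the same fits.

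Many nuclear genes of mitochondrial proteins were lower. Of 54 subunits of the respiratory chain 22 were lower and 0 higher (median -0.16, or -0.09 without scrambled replicate 3), against 14 lower and 5 higher without scrambled replicate 3, 14 lower without siTRIP12+siOTUD5 replicate 1 and 13 without replicate 3. NDUFB9, a subunit of complex I on chromosome 8, changed by log2 -0.56 and UQCRC1 of complex III by -0.33. Of 78 genes whose description starts with mitochondrial ribosomal, a family picked after its values were seen, 44 were lower and 0 higher (37 and 0 without scrambled replicate 3). Of 37 mitochondrial import genes 16 were lower and 1 higher, and 9 lower without scrambled replicate 3 or 10 without siTRIP12+siOTUD5 replicate 3. The member that rose was TOMM20, at 193, 183 and 197 CPM in siTRIP12+siOTUD5, against 109, 108 and 123 CPM in scrambled (log2 0.75 ± 0.06), which is a receptor of the same outer-membrane complex as TOMM22, and 2 were higher without scrambled replicate 3, siTRIP12 replicate 1 or 3, or siOTUD5 replicate 3. Of 13 genes encoded by mitochondrial DNA 3 were higher and 0 lower, with ND6 at 0.48, and 1 was higher without scrambled replicate 1 or 2.

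Glycolysis and hypoxia response genes were lower in 19 of 38 cases and higher in 5 (median -0.16, and 12 lower without siTRIP12+siOTUD5 replicate 2). ALDOC was at 34.2, 35.6 and 39.6 CPM in siTRIP12+siOTUD5, against 85.4, 87.3 and 83.9 CPM in scrambled, and PFKFB4, which sets the level of a glycolytic activator, at 19.6, 17.5 and 19.7 CPM in siTRIP12+siOTUD5, against 39.1, 40.1 and 36.4 CPM in scrambled (log2 -1.02 ± 0.10). The hypoxia-inducible factor genes HIF1A and EPAS1 rose by 0.24 and 0.46. VEGFA (0.18) and SLC2A1 (-0.03) were not called.

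Chaperone genes were lower in 14 of 35 cases and higher in 0 (median -0.15, and 1 higher without scrambled replicate 3), with BAG3 at -0.35, HSPH1 at -0.41 and the mitochondrial HSPE1 at -0.46. HSP90AA1 (-0.02) and HSPA8 (-0.01), both abundant, were not called. In the endoplasmic reticulum 12 of 33 genes were lower and 8 higher. The folding factors CALR, HSPA5 and SDF2L1 fell (-0.51, -0.36 and -0.58) and the stress sensors ERN1 and ATF6 rose (0.62 and 0.23). Of 34 proteasome subunits 10 were lower and 0 higher, by small amounts (PSMB3 at -0.33), and 7 were lower with upper-quartile factors. Without scrambled replicate 3, 1 proteasome subunit was higher and the median was -0.01, against -0.09 with it. Autophagy and lysosome genes were higher in 11 of 41 cases and lower in 3. The initiating kinase ULK1 was at 53.2, 54.9 and 53.1 CPM in siTRIP12+siOTUD5, against 34.8, 37.2 and 31.6 CPM in scrambled (log2 0.64 ± 0.07), and the receptor SQSTM1 and MAP1LC3B rose by 0.34 and 0.35.

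Of 29 NRF2 targets 9 were lower and 3 higher (median -0.17). CBR1 and NQO1 fell (-0.48 and -0.37), as did KEAP1 (-0.38), the adaptor that targets NRF2, and NFE2L2, which encodes NRF2, rose by 0.17, a call lost without scrambled replicate 2 or siTRIP12+siOTUD5 replicate 2 (adjusted p up to 0.0843). HMOX1 (-0.02) was not called. Of 24 ferroptosis and iron genes 9 were lower and 2 higher, with the transferrin receptor TFRC at -0.45 and DHODH at -0.51. The 2 rises, FTL and GCH1, became 0 without scrambled replicate 2 and 1 without scrambled replicate 1, siTRIP12 replicate 3, or any siOTUD5 or siTRIP12+siOTUD5 library.

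Among relatives of the targets, 10 of 27 HECT ligases and branching partners were higher and 2 lower, TRIP12 included (median 0.17, or 0.10 without scrambled replicate 3). SMURF2, a ligase of SMAD proteins, was at 67.5, 67.8 and 64.0 CPM in siTRIP12+siOTUD5, against 41.5, 45.5 and 41.8 CPM in scrambled (log2 0.63 ± 0.06), and NEDD4L and HECTD2 rose by 0.47 and 0.60. HUWE1 (0.19) and UBE3C (0.10) were not called. Of 16 OTU deubiquitylases 4 were higher and 2 lower, OTUD5 included (2 higher without scrambled replicate 3 or siTRIP12+siOTUD5 replicate 1). OTUB2 fell to 5.74, 5.87 and 5.29 CPM in siTRIP12+siOTUD5, against 11.9, 10.9 and 9.95 CPM in scrambled (log2 -0.95 ± 0.10), and OTUD1 rose by 0.58. Chromatin remodelling and deacetylase subunits were higher in 12 of 31 cases and lower in 3 (7 higher without siTRIP12+siOTUD5 replicate 3, which also left 1 lower, and 8 without scrambled replicate 3). SMARCA2 and ARID2 rose (0.37 and 0.38) and SMARCB1 fell (-0.35). Of 623 zinc finger genes, a family also picked after its values were seen, 151 were higher and 41 lower (131 and 47 without scrambled replicate 3).

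**Figure D5:**
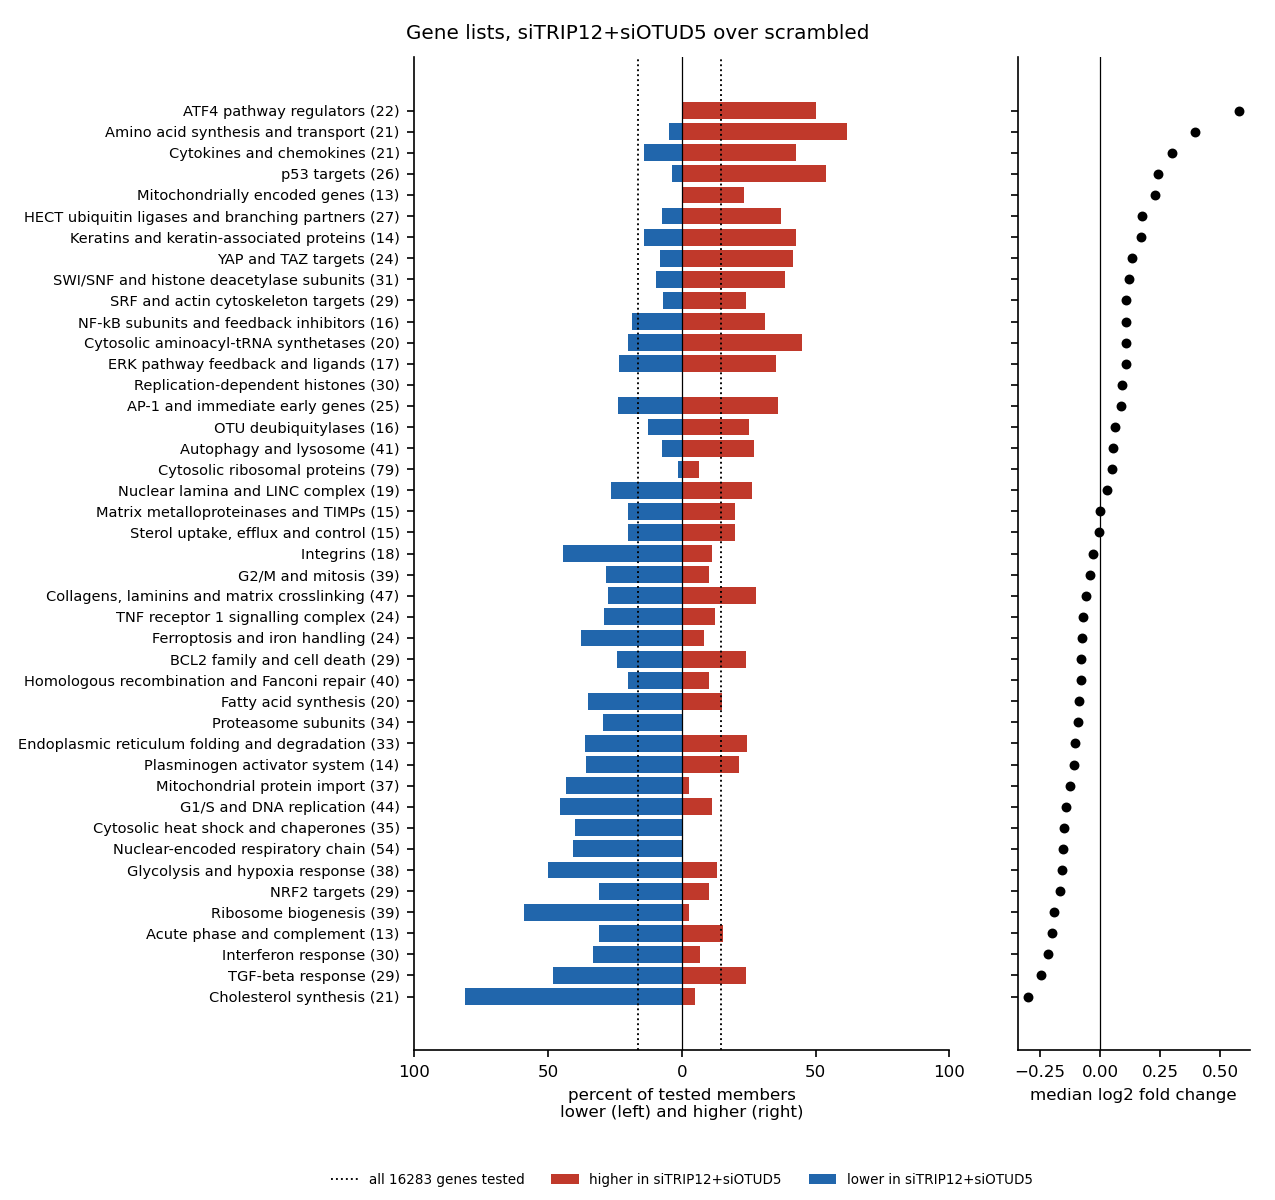
Percent of tested members called lower (blue, left) and higher (red, right) in siTRIP12+siOTUD5 against scrambled for 43 gene lists, with the number of tested members in brackets and dotted lines at the shares of all tested genes (14.7% higher, 16.2% lower), beside the median log2 fold change of each list. ATF4 regulators and amino acid genes stand at the top with medians of 0.58 and 0.39, and cholesterol synthesis at the bottom with -0.30.

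The double knockdown was set beside each single one to show which changes it carried further. Against siTRIP12, 2557 genes (15.7%) differed, 1429 higher (8.78%) and 1128 lower (6.93%), and against siOTUD5 1370 (8.41%), 545 higher (3.35%) and 825 lower (5.07%). With upper-quartile factors 1254 were higher and 1271 lower than with siTRIP12, and 678 higher and 700 lower than with siOTUD5. The number of genes that differed also moved with single libraries. Against siTRIP12 the count was 1495 without siTRIP12+siOTUD5 replicate 1. Against siOTUD5 it was 692 and 809 without siTRIP12+siOTUD5 replicates 1 and 3, 784, 712 and 740 without siOTUD5 replicates 1, 2 and 3, and 2474 without scrambled replicate 3. Of the 15 largest rises, 5 were higher than with either siRNA alone, namely MYCT1, SYNE1, ZNF404, ZNF699 and ANKRD1. Of the 13 largest falls beside the targets, 4 were lower than with either alone, namely CALB2, DAZAP2, LCTL and ALDOC. All these genes were chosen for a large change in the siTRIP12+siOTUD5 libraries, which also enter the comparisons with each single knockdown. That choice favours values beyond both, so the counts are a description. The share of all tested genes beyond both single knockdowns was not counted. LCTL was at 7.50, 8.35 and 8.84 CPM in siTRIP12+siOTUD5, 13.3, 14 and 12.7 CPM in siTRIP12, 12.3, 14.9 and 13.8 CPM in siOTUD5 and 21.6, 23.1 and 19.9 CPM in scrambled. ZNF699 was at 12.7, 11.3 and 10.9 CPM in siTRIP12+siOTUD5, 5.68, 6.56 and 7.06 CPM in siTRIP12, 6.45, 6.90 and 6.26 CPM in siOTUD5 and 3.62, 5.22 and 4.0 CPM in scrambled. In both genes the single knockdowns lay together between the double knockdown and scrambled. Of the rises, 4 were lower than with siTRIP12 alone, among them MMP3, with a log2 difference of -1.49 (adjusted p = 3.1e-07), and KRTAP2-3, with -1.19.

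The lists differed in how many members lay apart from each single knockdown. Of the 22 ATF4 regulators, 5 were above and 1 below siTRIP12 alone, and 1 above and 0 below siOTUD5 alone. Of the 21 cholesterol synthesis genes 1 was above and 12 below siTRIP12, and 0 above and 1 below siOTUD5. Of the 20 synthetases 9 were above and 0 below siTRIP12, and 0 above and 1 below siOTUD5. For the 29 TGF-beta genes 11 were above and 4 below siTRIP12, and 1 above and 8 below siOTUD5. For the 47 matrix genes 16 were above and 3 below siTRIP12, and 2 above and 16 below siOTUD5. A departure of the double knockdown from the sum of both single changes on the log2 scale was called for 1329 genes (8.16%), 751 above the sum (4.61%) and 578 below it (3.55%), or 553 above and 638 below with upper-quartile factors. In the G1/S list 24 of 44 genes departed from the sum, in TGF-beta response 11 of 29 and in ribosome biogenesis 10 of 39, while in the synthetase, NRF2, proteasome, OTU and respiratory chain lists 0 did by edgeR, and 6, 4, 3, 5 and 5 of them did at an unadjusted p under 0.05. The departure count was 844, 782 and 734 without siOTUD5 replicates 1, 2 and 3, 765 and 768 without siTRIP12+siOTUD5 replicates 1 and 3, and 846 without siTRIP12 replicate 3.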

How the data were processed

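Poly(A) RNA was prepared with RNeasy and a stranded TruSeq kit, per the labels' protocols, and HISAT2, StringTie and GRCh38 are named in the submitters' processing notes without versions. The authors deposited 1 table of 46427 genes with read counts, not normalized, and TPM values for each library; whether a count is a read or a fragment is not given in the sources used here. Counts were tested with edgeR 4.0.16 (R 4.3.3): 1 mean per group over all 12 libraries, trimmed-mean (TMM) scaling, filterByExpr (30144 genes removed), robust quasi-likelihood F-tests with 8 residual degrees of freedom, and Benjamini-Hochberg adjustment over 16283 genes, called under 0.05. SE is the log2 fold change divided by the square root of F. The authors' deposited TPM served for marker sums and length. Of the gene IDs, 44698 matched the RefSeq gene table. UTR sequences came from GENCODE 29 and promoters from RefSeq.

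Genes named are the targets, the 15 largest rises and 15 largest falls under the read and overlap conditions given above, the 8 largest rises and 8 largest falls in mean CPM, 4 long noncoding RNAs in each direction, and for each list its called members with the smallest p and its most abundant uncalled members; other members are given where a sentence accounts for the list. The members and lists were chosen with earlier results of these data known. Alternatives were other scaling (DESeq2 1.42.0 size factors, upper quartile), filters, DESeq2, limma-voom (limma 3.58.1), a test against 1.5-fold, a replicate block, a fit on the compared groups, and each library left out; the repeats of the gene type, length, family and UTR results without scrambled replicate 3 were chosen after seeing the data. The same code was tested on simulated counts.

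Replicates differed beyond counting noise (lowest chi-square per gene of 5.09). Results of some genes are not reported here.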

Additional observations from a re-analysis of the deposited data

Results flagged for a closer look

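For 22 of the 54 genes named for size of change or abundance, the double knockdown departed from the sum of both single changes on the log2 scale, by the edgeR test of that difference. Over all tested genes 8.16% departed. The genes were chosen by their change in siTRIP12+siOTUD5 over scrambled, which enters the departure itself, so the 22 are a description. A departure below 0 for a gene that rose, or above 0 for a gene that fell, means that the double knockdown changed it by less than the sum. This held for the rises MYCT1 (-1.52 ± 0.15), SYNE1 (-1.09 ± 0.13), KRTAP2-3 (-2.44 ± 0.21), KRTAP2-4 (-2.96 ± 0.45), MMP3 (-2.64 ± 0.17), CD22 (-1.32 ± 0.11), GDF15 (-1.12 ± 0.17), IGFN1 (-1.02 ± 0.25), IL13RA2 (-1.46 ± 0.14) and AKAP12 (-0.46 ± 0.10). It also held for the noncoding LOC151760 (-1.05 ± 0.21), LINC02009 (-1.85 ± 0.21) and LOC107984322 (-1.38 ± 0.28). Among falls it held for MMP9 (2.10 ± 0.14), TOMM22 (0.55 ± 0.10), DAZAP2 (0.53 ± 0.09), CALR (0.35 ± 0.08), LDHA (0.32 ± 0.07), TRIP12 (0.38 ± 0.11), LOC107987246 (2.27 ± 0.43) and ITGB2-AS1 (1.53 ± 0.32). ZNF404, at 0.63 ± 0.14, was the gene of the 22 that changed by more than the sum. CD22 had nearly the same change in each group, with log2 fold changes over scrambled of 1.51 in siTRIP12+siOTUD5, 1.47 in siTRIP12 and 1.37 in siOTUD5, which share the scrambled libraries.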

How the results depend on the processing

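The count of genes called in siTRIP12+siOTUD5 against scrambled was 5024 and lay between 3897 and 5007 with 1 library left out. It was 159 in a test against a 1.5-fold change, which gave 34 against siTRIP12, 14 against siOTUD5 and 34 for the departure from the sum. Leaving out 1 library gave 1495 to 3825 calls against siTRIP12, 692 to 2474 against siOTUD5 and 734 to 1794 for the departure, and a fit on the compared groups only gave 2936 against siOTUD5. The cause was not tested. The log2 fold changes with 1 library left out were -2.70 to -2.53 for TRIP12 and -2.55 to -2.38 for OTUD5. Deviations of same-numbered libraries of siTRIP12+siOTUD5 and scrambled correlated at -0.07 to -0.01, so these values showed no shared pattern by number. Whether same-numbered libraries were handled together cannot be told from these values. With the replicate number as a block the counts of these comparisons, in the same order, were 4863, 2396, 1220 and 1140. Of 572 called genes given by name or within a list, 155 lost their call in 1 or more alternatives other than the 1.5-fold test, 515 lost it in that test and 0 changed direction. List counts of 1 or 2 members moved by 1 with single libraries for YAP, SRF, keratin, interferon and endothelial genes. Genes under 1 CPM were called in 6.96% of cases, so a missing call at low counts does not show that a gene did not change.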
